A study of Homo sapiens with 6 samples.

Results

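The genes described here are 10 genes whose loss causes primary microcephaly, most of them encoding proteins of the centrosome. They were chosen by symbol as MCPH1, ASPM, CDK5RAP2, CENPJ, STIL, WDR62, CEP152, CEP135, CDK6 and CASC5, by a rule that names the genes and sets no threshold on a measured value. Of these 10 genes, 9 had a line in the deposited tables, out of 9754 genes with a line in any of them. All samples were of HEK293T, an established human embryonic kidney cell line, in 6 libraries. N6-methyladenosine (m6A), a methyl mark on adenosines of mRNA, was mapped by immunoprecipitation with an m6A antibody in cells given siRNA against TRMT10A and in cells given a control siRNA, with 1 immunoprecipitated and 1 input library in each of these arms. Contacts of TRMT10A with RNA were mapped in 2 replicates by CLIP, in which RNA is crosslinked to a protein and precipitated with it. The labels put TRMT10A in the siRNA field of the CLIP samples and do not say whether it was knocked down or added there, nor whether the replicates came from separate cultures.

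Primary microcephaly is a failure of the fetal brain to reach its normal size, with a largely normal architecture. Most of its genes act in mitosis, where the centrosome pair organises the spindle and the daughter centrioles are copied once per cycle. Neural progenitors are known to be sensitive to defects of this kind. TRMT10A methylates guanosines in tRNAs, and its loss in humans is also known to cause microcephaly, together with early diabetes. HEK293T cells are not fetal brain cells, so the values below describe the transcripts of a dividing line from embryonic kidney.

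The m6A table listed 26475 peaks on 9282 transcripts, without read counts, p-values or a value for each library, so depth is unknown and no test of the knockdown was possible. The gene columns of this table were sorted apart from its ratio and motif columns. A listed motif lay inside the peak of its own line on only 6.05% of 6314 lines with a motif, and the ratio rose over the line before on 0 lines. Peak number and position were therefore read from the gene columns, and a ratio was tied to a gene only through the exact positions of its motifs. Positions are counted along RefSeq transcripts, whose first base can differ from that of the GENCODE release 29 transcripts used to place exons. Among the peaks that could be placed on these transcripts, 826 held at least 2 motifs. Listed positions were taken to lie at a fixed offset inside the motif, not at its first base, and shifts are counted from there. Of the 826 peaks, 281 (34%) matched a listed set of motif positions with no shift, against 0 to 11 at shifts of up to 10 bases. Exon and region calls below carry this uncertainty of numbering.

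m6A peaks were listed for 9 of the 10 genes, CEP135 being the exception. Over all 20056 protein-coding genes, 44.6% had a peak, and among those with longest transcripts of similar length to these genes the share was 56.4% to 63.9%. Neither background was matched on expression, which was not analysed here. The 9 genes carried 38 peaks. CDK5RAP2, STIL and CDK6 had 6 peaks each, ASPM had 5, MCPH1, WDR62 and CEP152 had 4 each, CASC5 had 2 and CENPJ had 1. The median over the 10 genes was 4 peaks, and the median over all transcripts of the table was 2 (quartiles 1 and 4). Of the 10 genes, 7 had at least 4 peaks, compared with 28% of the transcripts in the table. No count of peaks has a replicate check, because the authors deposited 1 peak list for both arms.

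Long transcripts carried more peaks throughout the table, and these genes have long transcripts. The peak number of each gene was therefore set beside that of transcripts of similar length, in 20 bins. STIL (6 peaks on 5225 bases) stood above 81.6% of transcripts of its length, and MCPH1 (4 peaks on 2917 bases) also above 81.6%. CDK5RAP2 stood above 76.3%, WDR62 above 57.8% and CDK6 above 57.5%. CEP152 and ASPM, above 43.1% and 46.2%, were at the medians of 4 and 5 peaks for their lengths. CASC5 had 2 peaks against a median of 5, and CENPJ 1 against a median of 3, so that these 2 lay below the median of their bin. Density spanned 0.209 peaks per kb of transcript for CASC5 to 1.37 for MCPH1, with a median of 0.71, compared with 0.764 over all placed transcripts (quartiles 0.49 and 1.07). Over the 8039 bases of its longest transcript, all 4 listed MCPH1 peaks gave 0.498 peaks per kb. A count of 4 lay below the median of 5 for that length, above 33.6% of transcripts. The fourth of these peaks lies in an intron of that transcript, so the count and density on it are lower still. The place of MCPH1 above the median thus held for the listed short transcript only. For ASPM, CDK5RAP2, STIL, WDR62, CEP152 and CASC5 the listed transcript is the longest, so their side could not change. CENPJ (4347 bases listed, 5020 longest) stayed below the median and CDK6 (11684 and 11612) above it.

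**Figure D1:**
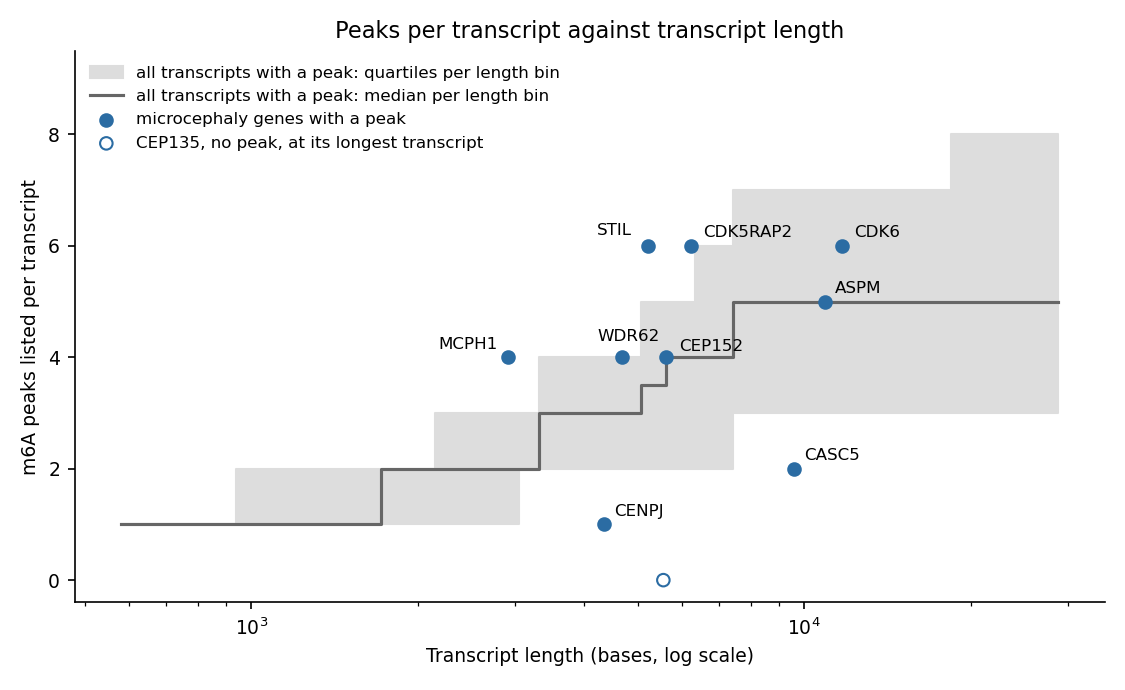
Listed m6A peaks per transcript (vertical axis) against transcript length in bases (horizontal axis, log scale). Filled points are the 9 genes with a peak, the open point is CEP135 with 0 peaks, the line is the median and the grey band the quartiles of all transcripts with a peak in 20 length bins. CASC5 and CENPJ lie below the median line, CEP152 and ASPM on it and the other 5 above it, MCPH1 at the length of its listed short transcript.

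CEP135 encodes a structural protein of the centriole cartwheel. It had no m6A line and no CLIP cluster under its symbol or its gene identifier. Among 956 protein-coding genes of similar length, expressed or not, 57.7% had a peak, so that genes of this length without one were common. Among the 30 centriole duplication and length genes described below, not matched on length, 80% had a peak. The tables hold no expression values, so absence of a peak and low expression cannot be told apart.

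The other centriole genes differed in how their peaks were arranged. STIL is a centriole assembly factor that works with the kinase PLK4. Its transcript NM_001282936 had peaks at bases 1752 to 1917, 2215 to 2562, 2563 to 2806, 3470 to 3670, 3772 to 3945 and 3946 to 4111. All had their centre in coding sequence, and 2 pairs of them adjoined without a gap. The first 2 peaks lay in exon 13, the largest internal exon, of 969 bases. Together the 6 peaks covered 24.9% of the transcript. The second peak, 348 bases wide, was the widest of the 38 and the only one with 2 copies of GGACU, the core motif of the METTL3 methyltransferase complex. The stretch that holds both copies is shown because it ties this peak to its ratio. It is read from the GENCODE transcript, 5′ to 3′ on the minus strand (hg38, chr1:47280293-47280394), with GGACT in capitals.

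STIL exon 13: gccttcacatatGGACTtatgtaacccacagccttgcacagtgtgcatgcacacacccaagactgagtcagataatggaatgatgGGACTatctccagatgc

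CENPJ, now also called CPAP, binds tubulin and sets the length of new centrioles. Its single peak spanned bases 2212 to 2390 of NM_018451 and covered 4.12% of the transcript. It lay in exon 7, an internal coding exon of 1615 bases at chromosome 13, 24905346 to 24906960. CEP152, a scaffold that recruits PLK4 to the parent centriole, had peaks at 2372 to 2490, 3313 to 3551, 4410 to 4634 and 4821 to 5040 of NM_001194998, all centred in coding sequence. The last 2 lay in exon 27, the last exon, 687 and 281 bases before the end of the coding sequence.

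The genes of the pericentriolar material and spindle poles had all their peaks centred in coding sequence as well. CDK5RAP2 anchors and activates the γ-tubulin ring that nucleates microtubules. Its peaks on NM_018249 lay at 571 to 850, 2621 to 2734, 2735 to 2938, 3601 to 3817, 4771 to 4870 and 4961 to 5154. Of these 6 peaks, 3 fell in its long internal exons 21 (418 bases) and 24 (574 bases). ASPM binds microtubule minus ends at the spindle pole. On NM_018136 its first peak, at 137 to 482, covered the annotated start of the coding sequence at base 258. The other 4, at 5004 to 5164, 5421 to 5540, 5850 to 6160 and 8014 to 8202, all lay in exon 18, a single exon of 4755 bases (chromosome 1, 197100431 to 197105185) that makes up 43.7% of the transcript. No ASPM peak lay within 2489 bases of the stop codon. WDR62, a spindle pole scaffold for the JNK pathway, had peaks at 2595 to 2791, 2792 to 2950, 3872 to 4123 and 4491 to 4671 of NM_001083961, and the last of these covered the end of the coding sequence at base 4607.

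**Figure D2:**
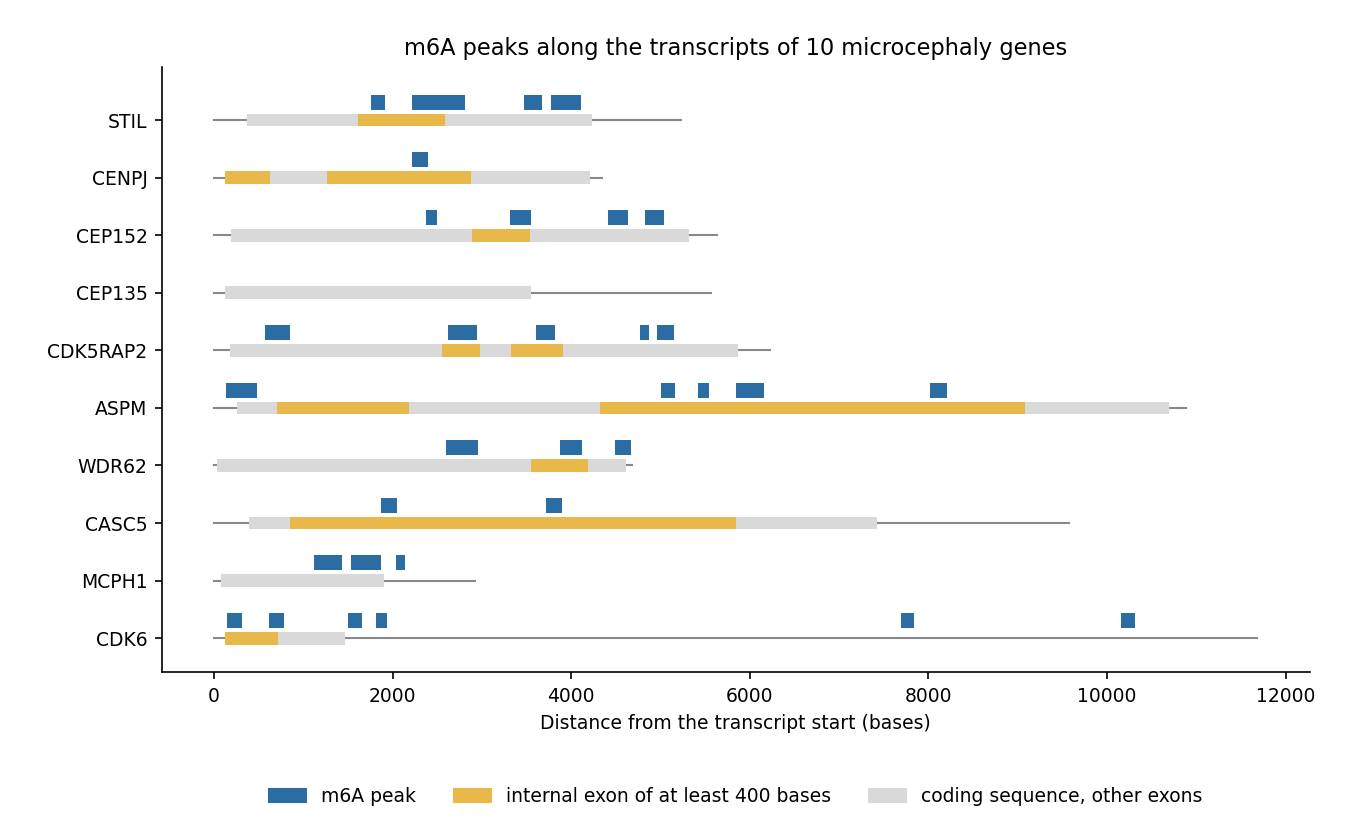
m6A peaks (blue) above each gene's transcript, with the distance from the transcript start in bases on the horizontal axis. Thin lines are whole transcripts, grey bars coding sequence, and yellow bars internal exons of at least 400 bases. In ASPM, CENPJ and CASC5 most or all peaks stand over 1 long exon, in CDK6 4 peaks lie beyond the coding sequence, and CEP135 has none. Adjoining peaks appear as 1 block.

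The 3 members that act outside the centrosome, or only partly in it, showed 3 different layouts. CASC5, now named KNL1, is a kinetochore scaffold that carries the BUB1 checkpoint kinase. Both of its peaks, at 1869 to 2050 and 3721 to 3895 of NM_170589, lay in exon 11. That exon of 5001 bases (chromosome 15, 40620640 to 40625640) makes up 52.2% of the transcript. The peaks covered 3.73% of the transcript, the lowest share among the 9 genes.

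MCPH1 delays chromosome condensation until mitosis and acts in the DNA damage response. It was listed through NM_001172574, whose matching transcript of 2917 bases ends within intron 8 of the longest one. Its peaks lay at 1120 to 1426, 1533 to 1673, 1674 to 1868 and 2033 to 2140, all in the last exon of this transcript, and covered 25.7% of it. The first 3 lie in sequence that the 14-exon transcript shares as its internal exon 8, which is 1155 bases long (chromosome 8, 6444393 to 6445547). The fourth peak lay 136 bases beyond the end of that exon, in sequence that is intron in the longest transcript and 3′ UTR in the listed one.

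CDK6 is a cyclin D kinase of the G1 phase that has also been found at centrosomes in mitosis. Its 6 peaks on NM_001145306 were the most spread out. The first, at 148 to 315, was centred in the 5′ UTR, the only such peak among the 38, and the second, at 612 to 785, in coding sequence. The remaining 4, at 1499 to 1656, 1811 to 1940, 7691 to 7833 and 10157 to 10311, lay in the 3′ UTR, the first of them 34 bases and the last 8692 bases after the stop codon. The GENCODE transcript matched to this accession is shorter than the peak positions, so its last exon was extended to the end of the longest CDK6 transcript.

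As a set, 32 of the 38 peaks were centred in coding sequence (84.2%), compared with 70% of 24431 peaks on other coding transcripts. In the 3′ UTR were 5 peaks (13.2%, against 20.7%), of which 4 were those of CDK6. Only 5 peaks, in 4 genes, lay within 200 bases of the stop codon, the region where m6A is known to be concentrated. That is 13.2%, compared with 23.9% for other transcripts. They include MCPH1 peaks 37 and 128 bases from the stop codon of its listed short transcript, which is intron sequence in its longest one. The share in the last exon was 36.8%, against 36.9% for other transcripts. It counts all 4 MCPH1 peaks, which lie in the last exon of the listed short transcript only. All shares in this paragraph are given without a test, because peaks of a gene share one transcript and are not independent. They were not matched on transcript length or set against the share of bases in each region. Coding sequence ran from base 258 to 10691 of 10887 in ASPM, but from 485 to 1465 of 11684 in CDK6. The median length over all placed transcripts was 3323 bases. When the numbering was shifted by up to 100 bases either way, 36 of the 38 peaks kept their region, with the first ASPM peak and the last WDR62 peak as the exceptions.

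Long internal exons, of at least 400 bases, held 16 of the 38 peaks (42.1%), in 8 of the 9 genes with a peak. MCPH1 was the exception, as its listed short transcript has no such exon. Its first peaks, not counted here, lie in sequence that is internal exon 8, of 1155 bases, in its longest transcript. For other coding transcripts the share was 13.3%. These genes are rich in such exons, which make up 28.1% of their transcript bases, compared with 6.39% elsewhere. Per kb, the 9 genes had 0.93 peaks in long internal exons and 0.5 in the rest of their transcripts. Other transcripts had 1.5 and 0.665. Peaks were thus denser in long internal exons in both sets. The pooled 0.93 was set largely by ASPM and CASC5, which had 6 peaks on 11236 bases of such exons (0.534 per kb), while the other genes had 10 peaks on 5976 bases (1.67 per kb). By gene, 5 of the 8 genes with long internal exons lay above the 1.5 of other transcripts, namely CDK6 (3.33), CDK5RAP2 (3.02), STIL (2.06), WDR62 (1.56) and CEP152 (1.54), and ASPM (0.642), CENPJ (0.471) and CASC5 (0.4) lay below it. Each of these values rests on 1 to 4 peaks. All 16 calls but 1, the second CDK6 peak, held over the shifts of numbering.

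**Figure D3:**
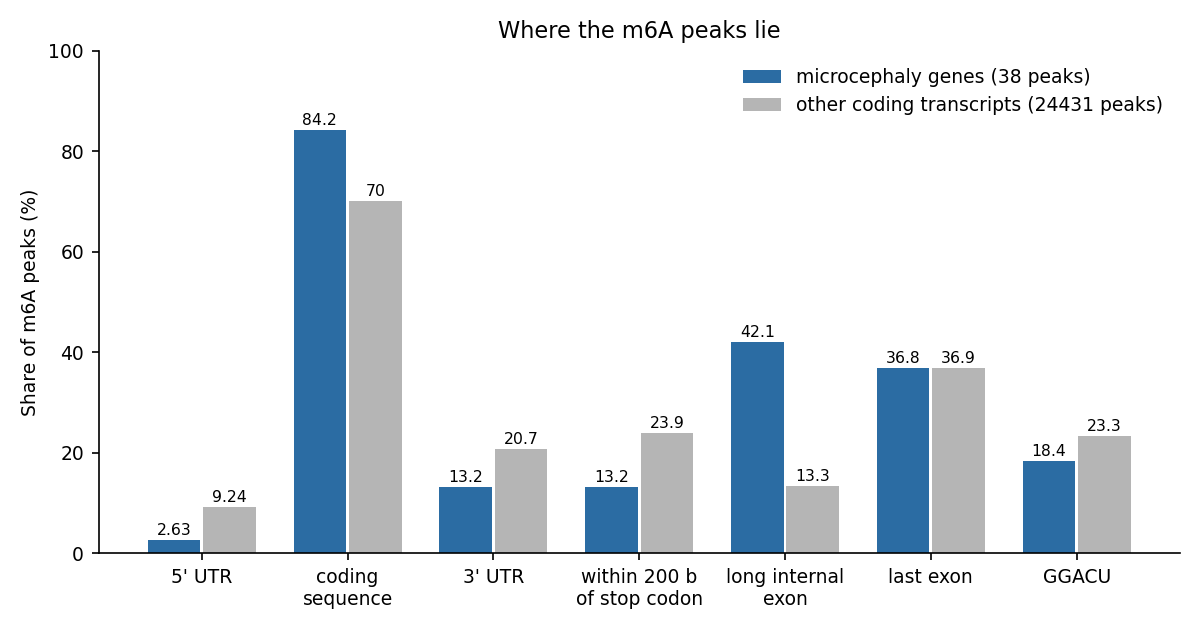
Share of m6A peaks, in percent, centred in each part of the transcript, lying within 200 bases of the stop codon, or holding GGACU. Blue bars are the 38 peaks of the microcephaly genes, placed on their listed transcripts, and grey bars the 24431 peaks of other coding transcripts. Shares are not matched on transcript length. The widest gap is in long internal exons, at 42.1% and 13.3%.

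With transcript numbering as in GENCODE, 7 of the 38 peaks held GGACU (18.4%), and 23.3% of the peaks on other coding transcripts did. The motif was searched as GGACT on the transcript strand. The wider DRACH consensus was in 36 of 38 peaks (94.7%) and in 95.2% of the others. Besides the STIL sites, 4 GGACU sites of coding peaks are shown with 12 bases on either side, 5′ to 3′, with the motif in capitals, since the motif is what can tie a peak to a ratio. The ASPM site is at chr1:197103434-197103462 on the minus strand, the CDK5RAP2 sites are at chr9:120536394-120536422 and chr9:120453634-120453662 on the minus strand, and the CASC5 site is at chr15:40623570-40623598 on the plus strand (hg38).

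ASPM exon 18: atttcagagcatGGACTgcaggaaggaag
CDK5RAP2 exon 7: gatgcacgagggGGACTtggcgatggctc
CDK5RAP2 exon 21: gtgcccaaggtaGGACTgaaagatgcctc
CASC5 exon 11: ggaggataaagaGGACTtccatttggcag

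The other 2 of these 7 peaks were the first of CDK6 and the last of WDR62. The peaks of MCPH1, CENPJ and CEP152 held no GGACT in this numbering. The listed motif positions matched the placement for the only GGACU peak of STIL, with 2 motifs, and the only one of ASPM, with 1 motif. They matched for 1 of 2 such peaks in CDK5RAP2 and for none in WDR62, CDK6 and CASC5. For the last 3 genes the motif calls are therefore uncertain, and 1 matching position is weak support for ASPM and CDK5RAP2.

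A difference in m6A enrichment between the TRMT10A and control knockdown arms could be read for 1 of the 38 peaks. Of the peaks placed on GENCODE transcripts (93.6% of the table), only the STIL peak at bases 2215 to 2562 held GGACU at positions 2443 and 2516. Peaks that could not be placed were not searched. A single line listed this pair of positions, both in coding sequence. In the authors' deposited table that line had a log2 enrichment ratio of 1.56, a 2.94-fold higher m6A enrichment after TRMT10A knockdown than after control knockdown, and was called common. Ratios of this size or higher stood on 5.57% of all lines and on 2.38% of the common lines. Past 2-fold higher lay 16.2% of all 26475 lines, 8.55% of the common lines and 8.54% of the 281 lines joined in the same way. The median log2 ratio was 0.17 over all lines, -0.03 over the common lines and -0.06 over the joined lines. The STIL peak was 1.38 above the median of all lines. The arms had 1 immunoprecipitated library each, so this ratio has no replicate check. Shifting the numbering by 1 to 10 bases gave a mean of 5.9 joins over the table in place of 281, which sets the expected share of false joins near 2.1%. The other 5 STIL peaks have no motif to join by, and whether they moved with it is not known.

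**Figure D4:**
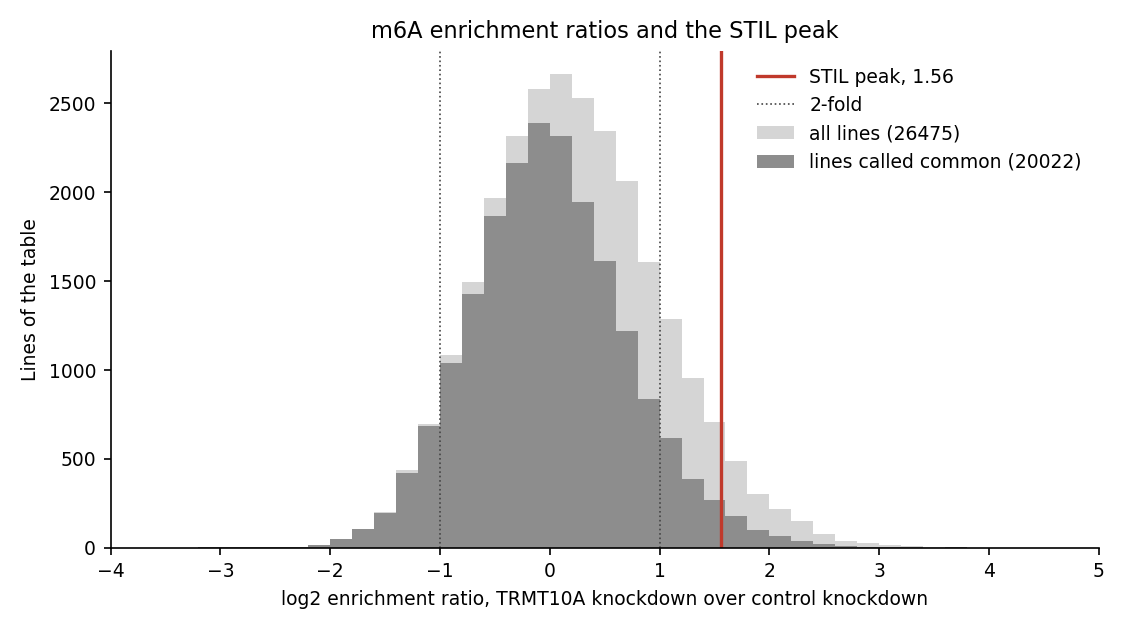
Number of table lines (vertical axis) by log2 enrichment ratio, TRMT10A knockdown over control knockdown (horizontal axis), for all 26475 lines and for the 20022 called common. The red line marks the STIL peak at 1.56 and dotted lines mark 2-fold. The STIL peak lies in the upper tail of both distributions.

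CLIP listed 1 of the 10 genes, in 1 replicate. In replicate 2 a cluster of 8 conversion events lay in an intron of CDK6 (hg38, chromosome 7, 92806773 to 92806783, minus strand) and was listed under both CDK6 accessions. Conversion events are, in some CLIP protocols, base changes at crosslinked positions. The cluster was 11 bases wide and lay in intron 2, which is 58259 bases long, 26308 bases from the exon before and 31942 bases from the exon after. Its 8 events were 0.00161% of the 496030 events in that replicate (95% Wilson interval 0.000817 to 0.00318, counting error only). At least 8 events were found in 43.8% of all 2183 clusters of replicate 2 and in 62.1% of its 559 intronic clusters. No cluster of replicate 1 overlapped it.

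Replicate 1 held 342690 events in 1675 clusters and listed none of the 10 genes. The lowest listed cluster had 2 events in both replicates, so a gene that is not listed may still have been bound below that level. Protein-coding genes as a whole were listed at 2.19% in replicate 1, 3.38% in replicate 2 and 4.12% in either, so 0, 1 and 1 of 10 genes are near this background. The exons of the 10 genes carried 0 clusters, those of STIL included. TRMT10A itself, the immunoprecipitated protein's own gene, had 32 events in 6 clusters in replicate 1 and 76 events in 9 clusters in replicate 2, and no m6A line. No control immunoprecipitation was analysed here.

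Genes related to these 10 by function or by disease resembled them in how often they carried a peak. The 6 further lists held 113 genes, chosen by function or, in 1 list, by a link to primary microcephaly. Of the 113 genes, 98 had an m6A peak (86.7%), compared with 9 of the 10 genes above and 44.6% of protein-coding genes. These lists were not matched on length, which raised the share to between 56.4% and 63.9% at the lengths of the 10 genes. The median number of peaks per gene was 4 in the 10 genes, 3 among other microcephaly genes and 2 in each of the remaining 5 lists. Some genes stand in more than 1 list, and the lists were not matched on expression either, which was not analysed here. These shares are a description, without a test.

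Among the other microcephaly genes, 26 of 30 had a peak. PCNT, which builds the pericentriolar material, had 10, CIT, a kinase of cytokinesis, 9, and NCAPD3, a condensin subunit, and NIN, a microtubule anchor of the mother centriole, 7 each. Of the centriole duplication and length genes 24 of 30 had a peak, led by CENPF, a kinetochore and centrosome protein gene, with 12, and by CEP192 and OFD1 with 5 each and KIF24 with 4. The pericentriolar and γ-tubulin list had 16 of 19, including AKAP9 with 8 and CEP250 with 6, beside PCNT and NIN. Of the kinetochore partners of CASC5, 14 of 15 had a peak. The checkpoint kinase genes BUB1B and BUB1 had 6 and 4, NSL1 had 4 and BUB3 had 3, and CASC5 itself had 2. Of the partners of CDK6, 14 of 15 had a peak, led by the transcription factor gene E2F3 with 8 and the cyclin gene CCND1 with 7, with CCND3 and CDKN2B at 4 each. The spindle pole list had 12 of 14, led by NUMA1 with 9 and CKAP5 with 8, with CLASP1 at 6 and TPX2 at 4.

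**Figure D5:**
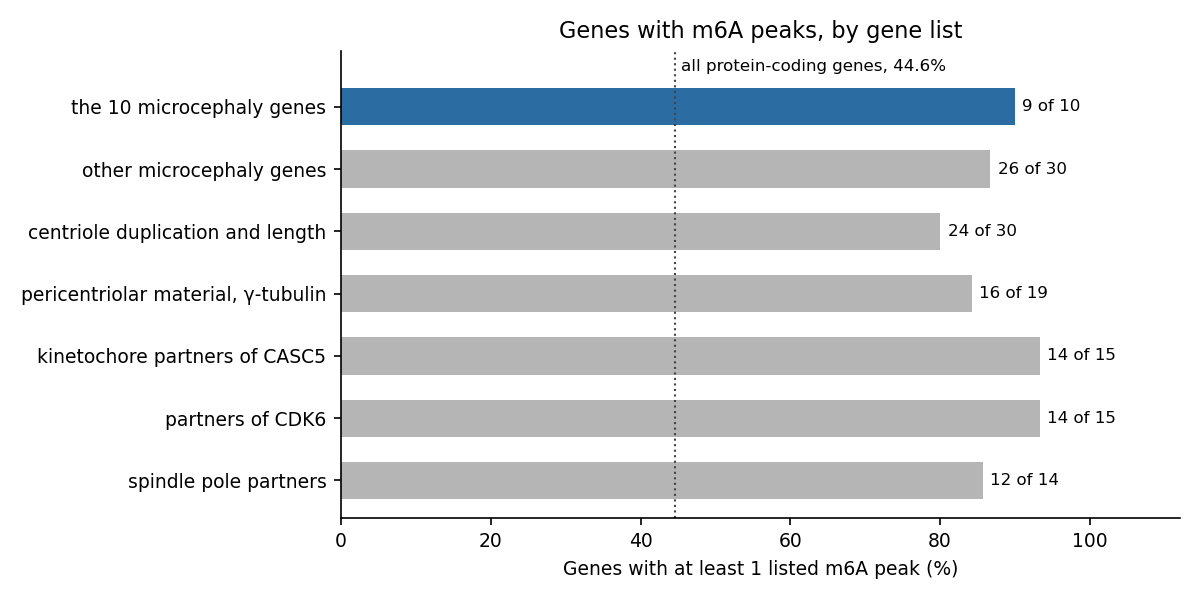
Share of genes with at least 1 listed m6A peak, in percent, for the 10 microcephaly genes (blue) and 6 other lists (grey). The dotted line is the share over all protein-coding genes, 44.6%. All 7 lists lie between 80% and 93.3%.

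In CLIP, 12 of the 113 genes were listed in either replicate (10.6%) and 2 in both (1.77%), against 4.12% and 1.44% of protein-coding genes. That background covers genes expressed or not and was not matched on expression or length, and the difference was not tested. The 2 in both were LMNB2, a nuclear lamina gene, with 3 events in replicate 1 and 4 in replicate 2 in its 3′ UTR, and MFSD2A, a lipid transporter gene of the blood-brain barrier, with 3 and 2 events in an intron. The condensin genes stood in 1 replicate each, NCAPH with 3 events in replicate 1, and NCAPD2 and NCAPD3 with 2 events each in replicate 2, all in coding sequence. PCNT had 2 intronic events in replicate 1. CDK4, the closest relative of CDK6, had 3 events in its 5′ UTR in replicate 1, and its inhibitor gene CDKN2A 3 events in its 3′ UTR in replicate 2. MZT2B, a small subunit gene of the γ-tubulin ring complex, had 5 coding events and the γ-tubulin gene TUBG1 had 2, TPX2 had 2 in its 3′ UTR and PMF1 2 in an intron, all in replicate 2. None of the 30 centriole duplication and length genes was listed. Apart from MZT2B, whose 5 events equal the median cluster of replicate 2, these genes had 2 to 4 events in a replicate.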

How the data were processed

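RNA of HEK293T cells was analysed in 6 samples, grouped by their titles. The submitters' processing notes name hg38, TopHat2 and Cuffdiff, with no role. No source used here names the peak or cluster callers. Each CLIP cluster carries a count of conversion events, deposited by the authors without normalization, per the file headers. Each m6A line carries a log2 ratio of enrichment, knockdown over control, computed by the authors, per the file headers. How it was normalized, and how lines were called common or unique, no source used here states.

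Genes were matched by symbol and, as a check, by gene identifier. Peaks were placed on GENCODE release 29 transcripts paired with the RefSeq accessions (93.6% of peaks, 24791). Regions and exons were taken at the peak's centre, and distance to the stop codon from the nearer peak edge. Ratios were joined to peaks where a set of at least 2 GGACU positions occurred in exactly 1 placed peak and on exactly 1 line. These positions were taken at a fixed offset inside the motif. Promoter sequences were not used, and no genome sequence was used, so the CDK6 cluster is given by position only. Code for placing and joining was tested on simulated data. No test of conditions was possible with 1 library per arm and kind, and no p-value is given. The rule for the 10 genes uses symbols and no measured value, but these genes, the gene lists and the tests were chosen with earlier results of these data known. All 10 members are named, together with the 4 genes of each other list with the most peaks and those with a CLIP cluster. Python 3.11.15, pandas 2.3.3 and scipy 1.17.1 were used.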

Additional observations from a re-analysis of the deposited data

How the results depend on the processing

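Of 21 alternatives over 10 results, 8 changed a value by the criteria used, which were over 1.5 times for a count, over 1 SD for a median over genes and any change for the single STIL ratio. With DRACH in place of GGACU, 36 peaks held the motif in place of 7. Within 100 or 400 bases of the stop codon lay 3 and 9 peaks, in place of 5 within 200. The STIL log2 ratio of 1.56 became 1.38 when centred on the median of all lines (0.17). The common lines, to which it belongs, had a median of -0.03, so centring on them would not lower it. With joins by a single motif added, ASPM (0.72) and CDK5RAP2 (1.08) joined STIL and the median was 1.08. Such joins were as frequent as 438 at other shifts on average, compared with 662 at no shift, so these 2 values are not usable. The CDK6 listing in CLIP, 1 gene, became 0 with both replicates required or with exon clusters only, and lay between 0 (without replicate 2) and 1 (without replicate 1). No paired analysis was possible because no test was made and only the CLIP libraries carry replicate numbers. Shifts of numbering and other lengths of long exons (300 and 600 bases, with 16 and 13 peaks), and the placing by longest transcript (3 genes below the median of their length, in place of 2), were chosen after seeing the data. No CLIP cluster under 2 events was listed, and whether depth or the caller set that floor was not tested.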
